A study of Homo sapiens with 6 samples.

Results

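GDF15 and STC2, 2 genes that encode secreted stress factors, were followed in 6 RNA-seq libraries of the cell line HBMEC, labelled as human brain microvascular endothelial cells. The members were taken by symbol from a deposited table of 17104 genes, and both had a value. They were chosen by their measured difference between the same groups, known from earlier results, so their own levels and differences are a description and carry no test. The libraries form 2 groups of 3: cells that went through oxygen-glucose deprivation/reperfusion (OGD/R), a cell culture model of stroke that removes oxygen and glucose for a time and restores them, and control cells in normal culture. The sample titles mark the groups as OGD and CON, and the series text gives the treatment. How long each step lasted is not stated in these sources. All libraries come from 1 cell line, and no label tells whether replicates were separate cultures, so p-values here reflect sample-to-sample spread that may be only technical.

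GDF15 (growth differentiation factor 15) is a distant member of the TGF-beta superfamily. It is made as a precursor, cut by furin-type proteases and released as a dimer. Its known receptor, GFRAL, sits with the co-receptor RET on hindbrain neurons and lowers food intake. Transcription of GDF15 is known to respond to ATF4 and CHOP, the factors of the integrated stress response. STC2 (stanniocalcin 2) is a secreted glycoprotein related to a calcium-lowering hormone of fish. It binds and blocks PAPP-A, a protease that frees insulin-like growth factors (IGFs) from their binding proteins, and it is known as a gene induced by ATF4 and by hypoxia.

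Both genes code for proteins and were annotated as GDF15 (ENSG00000130513) on the plus strand of chromosome 19 and STC2 (ENSG00000113739) on the minus strand of chromosome 5. In GENCODE 29 the longest transcript of GDF15 has 1200 nucleotides and that of STC2 has 5353. No exon base of either gene overlaps another gene in that annotation, and the microRNA gene MIR3189 lies inside GDF15. In RefSeq (GRCh38.p14), both 250-base windows before the transcript start hold a CCAAT box in reverse orientation at a like distance. The match begins 103 bases before the start of GDF15 and 100 bases before that of STC2. GDF15 also has a TATA box 29 bases before its start. These stretches of 30 bases are shown because they are the promoter letters that the members share and differ in, with the motif in capitals and each read 5′ to 3′ on the strand of its gene.
GDF15 CCAAT box (chr19:18386043-18386072, plus strand): ccagctgtggtcATTGGagtgtttactctg
STC2 CCAAT box (chr5:173328497-173328526, minus strand): ccggggtctcggATTGGtccagccgccggg
GDF15 TATA box (chr19:18386117-18386146, plus strand): aagtccggggacTATAAAggccggtccggc

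The letters CCAAT were found on either strand in 32% of 35116 RefSeq windows of the same length, and TATAAA in 10.7%. GDF15 had a pair of GC boxes (GGGCGG, in 42.6% of windows), at 119 and 70 bases, and STC2 had none. Neither window held the ATF4 composite site TGATGNAA (in 3.14% of windows), the AP-1 site TGANTCA (6.57%), the cAMP response element TGACGTCA (1.65%), the E-box CACGTG (6.34%) or the hypoxia response core ACGTG (18.5%). CACGTG holds the letters ACGTG, and the listed matches do not overlap each other. GENCODE 29 also lists transcripts of both genes that start further upstream and run across these stretches.

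Levels are given as CPM (counts scaled to a common library total) after TMM scaling, which adjusts the totals for differences in composition. The libraries held 31048662 to 34484647 counts, and each member had 2971 to 6859 of them. Mitochondrial transcripts made up 5.04% to 5.33% of the counts after OGD/R and 4.94% to 5.12% in control. Of 15 endothelial marker genes 6 had a value: ESAM (132 CPM after OGD/R and 138 CPM in control), ENG (80.3 and 78.4), EGFL7 (53 and 52.7), CDH5 (18.1 and 10.3), ROBO4 (3.79 and 6.36) and MMRN2 (0.207 and 0.717). PECAM1, VWF, KDR, TEK and CLDN5 were among the 9 with none. Of 14 epithelial markers 9 had a value, led by the keratin genes KRT8 (1560 CPM after OGD/R and 1240 CPM in control), KRT18 (962 and 848) and KRT7 (400 and 356). EPCAM (57.7 and 52.3), ELF3 (47 and 41.2), ESRP1 (37.4 and 42.2) and CLDN4 (17.8 and 21.2) followed. The epithelial cadherin gene CDH1 (0.980 and 1.19) and ESRP2 (0.369 and 0.374) were low. The summed level of the epithelial list, carried by these keratins, was 3050 to 3100 CPM after OGD/R and 2490 to 2710 CPM in control, and that of the endothelial list was 282 to 294 CPM after OGD/R and 277 to 293 CPM in control. The list medians lay closer together, at 44.9 to 49.1 CPM after OGD/R and 41.5 to 46.7 CPM in control for epithelial markers, and at 34.2 to 37.7 CPM after OGD/R and 29.2 to 33.0 CPM in control for endothelial ones. Markers of both cell types were thus measured, and several defining endothelial ones had no value. Of the 9 epithelial markers 4 passed an edgeR adjusted p of 0.05, all higher after OGD/R (KRT8, KRT18, KRT7 and ELF3), where 10.2% of all genes were higher and 9.48% lower. The other 5 did not pass, with log2 fold changes of 0.14 for EPCAM, −0.25 for CLDN4, −0.18 for ESRP1, −0.28 for CDH1 and −0.01 for ESRP2. Of the endothelial markers CDH5 was higher (0.81) and ROBO4 (−0.75) and MMRN2 (−1.75) were lower. MMRN2 lies near the lowest levels in the table, so nothing is read from its call. The part of these markers in the results was not tested.

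GDF15 stood at 113, 97.0 and 88.7 CPM in OGD/R replicates 1, 2 and 3, against 175, 183 and 186 CPM in control replicates 1, 2 and 3. Every OGD/R library lay below every control library. The means were 99.6 ± 12.4 CPM after OGD/R and 181 ± 5.65 CPM in control (SD, n = 3 each), so the OGD/R mean was 54.9% of the control mean. On the log2 scale the difference was −0.87 ± 0.11 (OGD/R minus control, SE over replicates).

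STC2 stood at 118, 129 and 125 CPM in OGD/R replicates 1, 2 and 3, against 199, 204 and 203 CPM in control replicates 1, 2 and 3. These groups did not overlap either, and the control libraries lay close together. The means were 124 ± 5.49 CPM after OGD/R and 202 ± 2.55 CPM in control (SD, n = 3 each), which puts OGD/R at 61.2% of control and the log2 difference at −0.71 ± 0.04 (SE). Groups did not overlap in 33% of all genes, and in 16.6% the OGD/R group was the lower one. In edgeR 19.7% of all genes passed an adjusted p of 0.05. Nothing is read from the members' own share, because the same contrast chose them. Among the 9941 genes that averaged 10 CPM or more, the log2 fold change of GDF15 was the 6th lowest and that of STC2 the 15th lowest. Over all 17104 genes GDF15 came 297th and STC2 492nd. These ranks describe the contrast that chose the members. In bulk RNA, fewer cells that make a transcript and less of it per cell cannot be told apart.

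**Figure D1:**
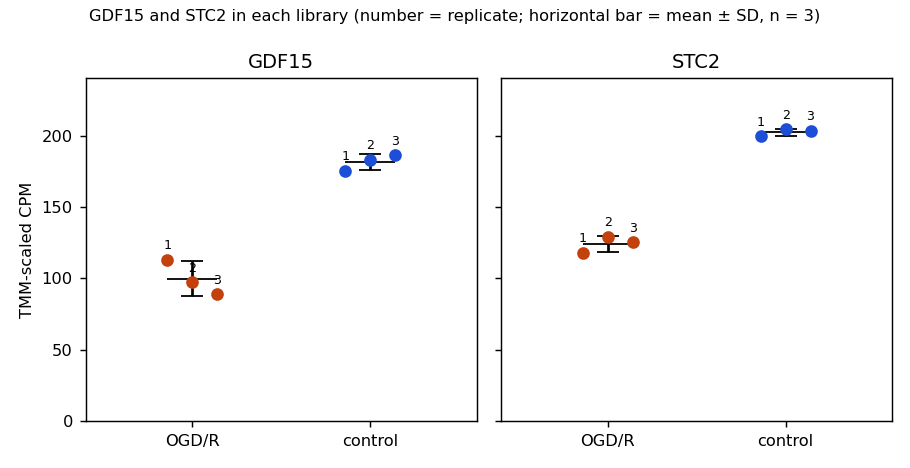
TMM-scaled CPM of GDF15 and STC2 in each library, OGD/R to the left of control. Points are libraries with their replicate number, and bars give the mean and SD of 3. All 3 OGD/R libraries lie below all 3 control libraries for both genes, and the OGD/R libraries are spread wider for GDF15 (88.7 to 113 CPM) than for STC2 (118 to 129 CPM).

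The spread between OGD/R libraries was wider for GDF15 than for STC2, and for both it was wider than in control. The coefficient of variation (CV, SD over mean) of GDF15 was 12.4% in the OGD/R group and 3.11% in the control group. That of STC2 was 4.43% in the OGD/R group and 1.26% in the control group. Of 1514 genes with a mean of 100 to 200 CPM, 0 had a higher CV than GDF15 in the OGD/R group, where their median was 3.01% and their 95th percentile 6.58%. In the control group 893 of these genes had a higher CV than GDF15. For STC2 the number with a higher CV was 358 in the OGD/R group and 1390 in the control group. Counting error alone would give GDF15 a CV of 1.75% after OGD/R and 1.29% in control. Replicate 1 held the highest GDF15 level of the OGD/R group and the lowest STC2 level. Without OGD/R replicate 1, the edgeR log2 fold change was −0.97 for GDF15 and −0.67 for STC2, against −0.86 and −0.71 with all 6 libraries.

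**Figure D2:**
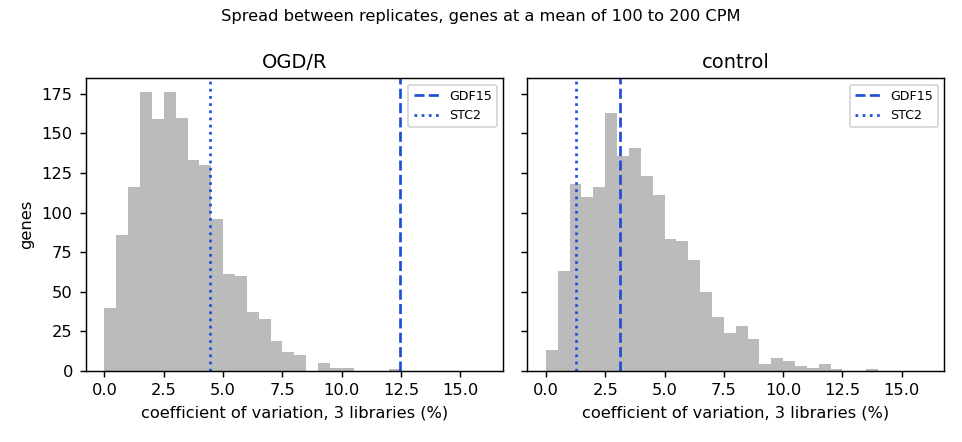
Histograms of the CV over 3 libraries for 1514 genes with a mean of 100 to 200 CPM, in OGD/R (left) and control (right). Lines mark GDF15 (dashed) and STC2 (dotted): GDF15 lies beyond the other genes in OGD/R at 12.4% and near the middle in control at 3.11%.

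The count ratio of the members does not depend on how libraries are scaled. GDF15 over STC2 was 0.959, 0.754 and 0.709 in OGD/R replicates 1, 2 and 3, against 0.878, 0.895 and 0.916 in the control libraries. The OGD/R ratios lay on both sides of the control ratios. The log2 ratio differed by −0.16 ± 0.13 (SE), so the difference between the members' changes was close to its error. It was −0.32 once each library was corrected for trends on transcript length and GC content. Fold changes in these libraries declined with transcript length (Spearman's rho −0.36 across 10859 genes, which are not independent replicates). With these genes cut into 10 equal classes from short to long, GDF15 belongs to class 1, with a median log2 fold change of 0.13, and STC2 to class 8, with −0.05. After the correction the log2 fold change was −0.96 for GDF15 and −0.63 for STC2.

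Per kilobase of the longest transcript, GDF15 averaged 83.0 CPM after OGD/R and 151 CPM in control, and STC2 averaged 23.1 CPM after OGD/R and 37.8 CPM in control. GDF15 was thus the higher of the members per length in both groups. With the summed length of all annotated exons GDF15 averaged 47.7 CPM per kilobase after OGD/R and 86.9 in control, and STC2 averaged 20.2 after OGD/R and 33.0 in control, which leaves this order in place.

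The other stanniocalcin, STC1, a paracrine relative of STC2, changed less. It stood at 101, 102 and 105 CPM in OGD/R replicates 1, 2 and 3 and at 115, 114 and 110 CPM in control replicates 1, 2 and 3. STC1 fell by 0.14 on the log2 scale (SE 0.05, edgeR adjusted p = 0.0246). That call ended without OGD/R replicate 1 (adjusted p 0.0834) or 2 (0.0990) and without control replicate 1 (0.0702) or 2 (0.0608), while over all alternatives the log2 fold change stayed between −0.17 and −0.13 and the adjusted p between 0.0015 and 0.0990. Per kilobase, STC2 was below STC1 after OGD/R (23.1 ± 1.03 CPM for STC2 and 26.4 ± 0.537 CPM for STC1) and above it in control (37.8 ± 0.476 CPM for STC2 and 29.2 ± 0.675 CPM for STC1; SD, n = 3 each). The same order was found with the summed exon length. The count ratio of STC2 over STC1 was 1.17 to 1.27 after OGD/R and 1.73 to 1.84 in control.

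PAPPA, which encodes the protease that STC2 blocks, was low. It averaged 2.21 ± 0.531 CPM after OGD/R and 3.80 ± 1.01 CPM in control (SD, n = 3 each). It fell by 0.78 on the log2 scale (SE 0.23, edgeR adjusted p = 0.0104), although its groups overlapped, and it lost the call without OGD/R replicate 3 (adjusted p 0.0709) or control replicate 3 (0.120, the highest over all alternatives, with 0.00322 the lowest). IGFBP4, the main binding protein that PAPP-A cuts, rose to 629 ± 8.52 CPM after OGD/R, against 551 ± 20.3 CPM in control (log2 fold change 0.19 ± 0.04 SE, adjusted p = 0.000325). The receptor genes IGF1R (−0.37), IGF2R (−0.28) and INSR (−0.38) and the binding protein gene IGFBP3 (−0.44) fell. IGFBP5, another PAPP-A substrate, had a value of −0.56 ± 0.30 and did not pass (adjusted p = 0.211); it fell without OGD/R replicate 3 (adjusted p 0.0374, the lowest of its alternatives, with 0.619 the highest). IGF2 was below 0.5 CPM in every library and did not pass (adjusted p = 0.0712). STIM1 (−0.04) and ORAI1 (0.03), the parts of the store-operated calcium channel, did not pass either. In all, 1 of 11 measured genes of this list rose and 6 fell, where 10.2% of all genes rose and 9.48% fell. The list had a median log2 fold change of −0.28, against −0.005 over all genes.

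Of the GDF15 receptor side, RET averaged 0.546 CPM after OGD/R and 0.383 CPM in control and did not pass (edgeR adjusted p = 0.572). GFRAL and the related receptor genes GFRA1 to GFRA4 had no value and were not analysed here. FURIN, which encodes the protease of that name, stood at 188 ± 5.73 CPM after OGD/R and 194 ± 8.20 CPM in control (adjusted p = 0.573). The related convertase genes PCSK5 (1.16 ± 0.50), PCSK6 (−0.34 ± 0.29) and PCSK7 (0.13 ± 0.07) did not pass. PCSK5 was low, with means of 0.727 CPM after OGD/R and 0.323 CPM in control. None of the 5 measured genes passed in edgeR or limma-voom, and 1 had an unadjusted edgeR p under 0.05. DESeq2 gave no adjusted p for RET and PCSK5, and FURIN, PCSK6 and PCSK7 did not pass in it. PCSK7 rose after the length and GC correction (0.24, adjusted p 0.00609, and 0.00456 to 0.511 over all alternatives).

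**Figure D3:**
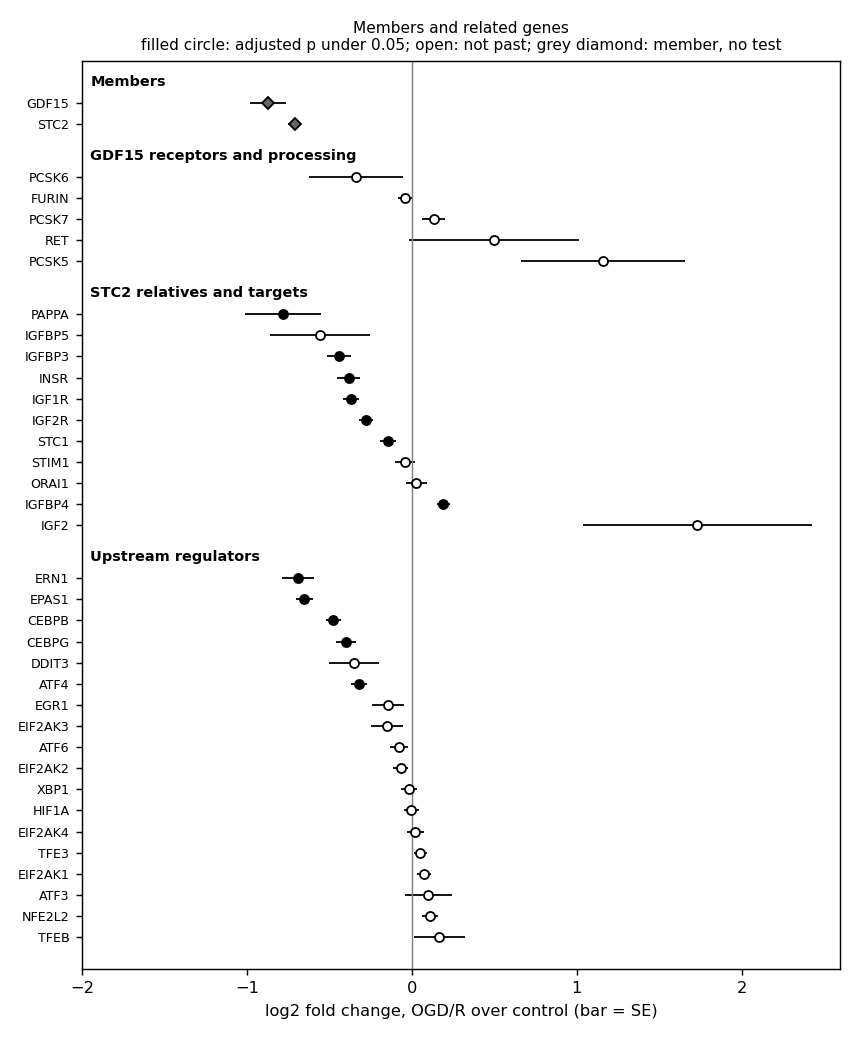
log2 fold change (OGD/R over control) of the members, of GDF15 receptor and processing genes, of STC2 relatives and targets and of upstream regulators, with SE bars. Filled circles passed an edgeR adjusted p of 0.05, open circles did not, and grey diamonds are the members, shown as the difference of mean log2 CPM with no test. Of 19 regulators 5 fell (18 are drawn), and none of the 5 genes of the GDF15 receptor and processing list passed.

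Among genes for regulators that act upstream of the members, 5 of 19 fell and 0 rose in edgeR (0 in DESeq2 and limma-voom too, with 1 at an unadjusted p under 0.05), and the median log2 fold change was −0.07. In either direction 26.3% of the list was called, against 19.7% of all genes. These calls were all lower, where 9.48% of all genes fell and 10.2% rose. ATF4, which encodes the central factor of the integrated stress response, fell to 220 ± 10.7 CPM after OGD/R, against 275 ± 20.4 CPM in control (−0.32 ± 0.05 SE, adjusted p = 6.7e-07). Its partners CEBPB (−0.48) and CEBPG (−0.40), the ER stress sensor gene ERN1 (−0.69) and the hypoxia factor gene EPAS1 (−0.65) fell. DDIT3, which encodes CHOP, had a value of −0.35 ± 0.15 and did not pass (adjusted p = 0.103), but fell after the length and GC correction (−0.50, adjusted p 0.0109, and 0.00971 to 0.533 over all alternatives). HIF1A (0.00), EGR1 (−0.15) and NFE2L2 (0.11) did not pass (NFE2L2 rose in the fit that lacks control replicate 1, at an adjusted p of 0.0444, the lowest of its alternatives, with 0.450 the highest), nor did the eIF2-alpha kinase genes EIF2AK1 to EIF2AK4 (−0.15 to 0.08). ATF3 (0.10), XBP1 (−0.02), ATF6 (−0.08), TFEB (0.17) and TFE3 (0.05) did not pass either. XBP1 fell only after the length and GC correction, with an adjusted p of 0.017 to 0.998 over all alternatives. GDF15 over ATF4, as a count ratio, was 0.384 to 0.540 after OGD/R and 0.614 to 0.699 in control. STC2 over ATF4 was 0.542 to 0.584 after OGD/R and 0.685 to 0.768 in control.

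Targets of ATF4, which serve amino acid import, amino acid synthesis and stress control, were mostly lower. All 28 listed genes had a value, 22 fell and 0 rose in edgeR (0 in DESeq2 and limma-voom, and 0 at an unadjusted p under 0.05), and the median log2 fold change was −0.42. Of all genes 9.48% fell and 10.2% rose. The serine synthesis enzyme gene PSAT1 fell to 84.8 ± 3.73 CPM after OGD/R, against 163 ± 8.77 CPM in control (−0.95 ± 0.05 SE, adjusted p = 2.45e-20). PHGDH (−0.79), the cystine importer gene SLC7A11 (−1.46) and the stress regulator gene TRIB3 (−0.53) were the others with the smallest p. Of this list 3 genes had a lower log2 fold change than GDF15 and 5 a lower one than STC2. Nothing is read from these places, because the same contrast chose GDF15 and STC2. SESN2 (−0.13) and ALDH18A1 (0.02) were among the 6 that did not pass.

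Targets of the hypoxia-inducible factors, a group to which STC2 is known to belong, went both ways. Of 24 measured genes 5 rose and 3 fell, where 10.2% of all genes rose and 9.48% fell, and the median was 0.00. The count of lower genes was near that share. NDRG1, a stress-response gene, fell to 48.5 ± 1.02 CPM after OGD/R, against 69.0 ± 3.25 CPM in control (−0.51 ± 0.06 SE, adjusted p = 2.41e-09). VEGFA, the angiogenic growth factor (−0.30), fell too. BHLHE40, a transcription repressor gene, rose (0.31). The count of higher genes was 3 without OGD/R replicate 2, control replicate 2 or control replicate 3, and with total-count scaling.

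**Figure D4:**
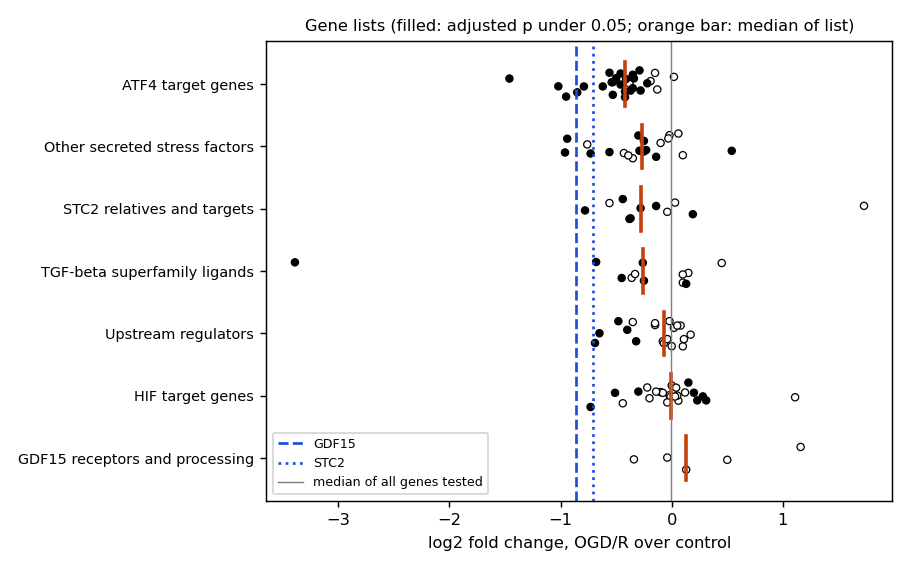
log2 fold change (OGD/R over control) of every measured gene in 7 lists, 1 point a gene. Filled points passed an edgeR adjusted p of 0.05, orange bars are list medians, and blue lines mark GDF15 (dashed) and STC2 (dotted). ATF4 targets have the lowest median (−0.42), and the HIF targets centre near 0.00.

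Of 20 measured genes for other secreted stress factors 1 rose, 10 fell and 9 did not pass, with a median of −0.27. Over all genes 10.2% rose and 9.48% fell. Leaving out 1 library gave 8 to 10 lower genes. CCL2, a chemokine gene, was the member that rose, to 66.6 ± 6.29 CPM after OGD/R, against 45.9 ± 1.56 CPM in control (0.54 ± 0.06 SE, adjusted p = 3.75e-09). The cytokine genes IL6 (−0.29) and LIF (−0.25) fell, as did VEGFA, which is also counted among the HIF targets. ADM2, an ATF4 target that encodes intermedin, fell (−0.56), while ADM, its hypoxia-responsive relative, did not pass (0.06, adjusted p = 0.672). The epidermal growth factor receptor ligand gene HBEGF (−0.96) and IGFBP1 (−0.94), at means of at most 8.25 CPM, had lower log2 fold changes than GDF15. MANF (0.10) and CRELD2 (−0.03), secreted factors of ER stress, did not pass. FGF21, another ATF4-driven hormone gene, had no value and was not analysed here.

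Within the TGF-beta superfamily, GDF15 was the most abundant measured ligand transcript per kilobase in control and came after TGFB1 following OGD/R. GDF15 made up 37.5%, 35.2% and 33.5% of the summed ligand level in OGD/R replicates 1, 2 and 3, against 48.7%, 49.9% and 50.4% in control replicates 1, 2 and 3. TGFB1 made up 38.1% to 39.6% after OGD/R and 27.1% to 27.8% in control. Shares have a common total, so a lower GDF15 level raises the others. TGFB1 itself averaged 90.8 CPM per kilobase after OGD/R and 83.2 in control. In OGD/R replicate 1 the shares of GDF15 and TGFB1 differed by little. With the summed exon length in place of the longest transcript, TGFB1 was also the higher of this pair in the 3 OGD/R libraries, and GDF15 in the 3 control libraries.

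Of the 12 other ligands with a value, 1 rose and 5 fell, with a median of −0.25, where 10.2% of all genes rose and 9.48% fell. The count of higher ligands was near that share. INHBA, an activin subunit gene, fell to 201 ± 1.33 CPM after OGD/R, against 239 ± 4.16 CPM in control (−0.25 ± 0.04 SE, adjusted p = 5e-06). TGFB1 rose by 0.13 on the log2 scale (adjusted p = 0.0247), but not without OGD/R replicate 1 (0.214), OGD/R replicate 2 (0.0609) or control replicate 3 (0.0684), nor with total-count scaling (0.103), within 0.000433 to 0.214 over all alternatives. AMH, the anti-Mullerian hormone gene, fell (−0.26), and lost its call without OGD/R replicate 2 (0.0530) or 3 (0.0778) and after the length and GC correction (0.0565), within 0.00272 to 0.0778 over all alternatives. BMP6 is the other gene called lower in every library split shown by its counts, 0, 2 and 2 after OGD/R and 14, 18 and 14 in control. These are too few for a fold change. BMP6 reached 10 counts only in the control libraries, so it is in the table through the group where it is higher. Nothing is read from its call, which is 1 of the 5 lower ones. The count of lower ligands was 2 without OGD/R replicate 2 or 3, and 3 without control replicate 1, with DESeq2, with limma-voom or after the length and GC correction. DESeq2 gave no adjusted p for BMP6, so BMP6 could not be counted there.

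**Figure D5:**
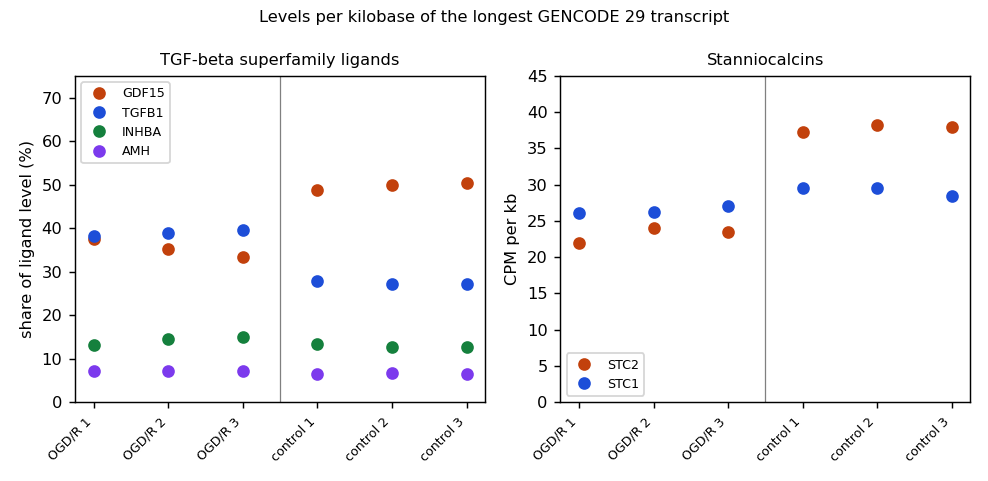
Left, the share of GDF15, TGFB1, INHBA and AMH in the summed level of 13 superfamily ligands, in percent. Right, STC2 and STC1 in CPM per kilobase. Each point is 1 library, OGD/R left of the line and control right of it, and levels are divided by the longest GENCODE 29 transcript. GDF15 and STC2 lie above TGFB1 and STC1 in control and below them after OGD/R.

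The genes most like each member were those with the highest Pearson correlation of log2 CPM over the 6 libraries, among 9635 other protein-coding genes averaging 10 CPM or more. The libraries form 2 separate groups, so such a correlation mostly follows the group difference, and it is given without a test. For GDF15 they were LIMD1 (r = 0.9987), ABCA2, RAI1, LTBP2 and BCL9L (r = 0.9962). LTBP2, which encodes a latent TGF-beta binding protein of the matrix, stood at 324, 313 and 306 CPM in OGD/R replicates 1, 2 and 3 and at 381, 383 and 385 CPM in control replicates 1, 2 and 3. All 5 had their highest OGD/R level in replicate 1, as GDF15 had, which follows from choosing them by likeness over these libraries. Their differences were smaller, with log2 fold changes of −0.32 to −0.23. For STC2 they included PTPN3 (r = 0.9992), PPFIBP1, FAN1 and MTHFD2 (r = 0.9969), with −0.46 to −0.24. MTHFD2, a mitochondrial folate enzyme gene, is also on the ATF4 target list. STC2 itself came 360th in likeness to GDF15 (r = 0.950), and GDF15 came 382nd in likeness to STC2.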

How the data were processed

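The deposited table holds whole-number read counts per Ensembl gene, 1 column a library. Per the submitters' processing notes, the authors used Trimmomatic, HISAT2, SAMtools, featureCounts and edgeR, without versions, and named the build GRCm38, a mouse build, although the gene IDs are human. So it is not certain which build was counted on, and strand use and multi-mapping rules are not given in the sources used here. The coordinates printed are RefSeq's. No gene fell under 10 counts in its third-highest library, a sign of a filter before deposit. Symbols matched 17093 of 17104 IDs.

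Counts were scaled by TMM and tested over all 17104 genes with edgeR 4.0.16 (quasi-likelihood, robust, two-sided, R 4.3.3), adjusted by Benjamini-Hochberg and called under 0.05. filterByExpr (minimum count 10) removed 0 genes. In edgeR 3370 genes passed (19.7%), 1749 higher and 1621 lower. The test was run on simulated data first. SEs of tested genes come from the fold change and F statistic, and those of the members from replicate log2 CPM. Transcript lengths are those of GENCODE 29.

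The members and the 8 gene lists were chosen with earlier results of these data known. Values of 1 list and of a few single genes are not reported here. Named genes were every measured receptor, relative and regulator, up to 4 of smallest p per list, and the 5 most like each member (log2 CPM with a prior count of 2). Genes named beyond these, among them SESN2, ALDH18A1, LIF, ADM, ADM2, HBEGF, IGFBP1, INHBB, BMP8B, MANF and CRELD2, were chosen after their values were seen. Alternatives were DESeq2 1.42.0, voom (limma 3.58.1), scaling by total counts, RLE or upper quartile, 2 filters, a replicate block, a length and GC correction (mgcv 1.9.3) and leaving out each library. Each library was kept as a sample. Pairs of libraries differed by more than sampling noise (chi-square per degree of freedom 4.07 to 7.42 within groups, 16.0 to 23.5 across). That does not tell whether they were separate cultures. The proteins' sequences were not used here.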

Additional observations from a re-analysis of the deposited data

How the results depend on the processing

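Over 16 alternatives the log2 fold change of GDF15 ranged from −0.97 to −0.79 and that of STC2 from −0.74 to −0.63, and neither changed sign. Over those that leave out 1 library the ranges were −0.97 to −0.79 for GDF15, −0.74 to −0.67 for STC2 and −0.29 to −0.07 for their difference. The difference between the members was −0.16, and it moved to −0.32 under the length and GC correction, or −0.33 with the replicate block added. STC2 was at −0.63 in both. Under that correction, with and without the block, the higher genes numbered 1 among GDF15 receptors and processing and 2 among superfamily ligands, and the lower ones 3 among ligands. With the block added, 1 upstream regulator was higher.

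Total-count scaling gave 3 higher HIF targets and 0 higher ligands, and moved the split over all genes to 1383 higher and 2098 lower. DESeq2 and limma-voom each gave 3 lower ligands, and DESeq2 gave no adjusted p for BMP6. Leaving out 1 library gave 1079 to 1527 lower genes over the whole table (1079 without control replicate 3), 3 to 5 higher HIF targets, 0 to 1 higher and 2 to 4 lower ligands, and 0 to 1 higher upstream regulators. The cause of these changes was not tested. Testing without a filter used the same genes and shows nothing about filtering.

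Whether same-numbered libraries were handled as pairs is not known, and 3 libraries a group cannot settle it. Deviations from the group means of same-numbered libraries had correlations of −0.01, 0.12 and −0.03, and not every sample correlated best with its own number. With the replicate number as a block, 1827 genes were higher and 1702 lower, and the log2 fold changes were −0.87 for GDF15 and −0.71 for STC2. With 3 libraries a group and 1 cell line, spread between cultures is not known.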
